A study of Homo sapiens with 24 samples.

Results

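PANC-1 is a cell line from a pancreatic ductal adenocarcinoma, written PANC1 in the labels. The response of its transcriptome to depletion of IGF2BP1 was measured in 6 libraries of total RNA, chosen by their labels from the 24 libraries of the series. In 3 libraries, called siC, the cells had received a control siRNA (CEL-miR-239b). In the other 3, called siI1, they had received a pool of siRNAs against IGF2BP1 that spares its paralogues. RNA was taken 96 h after transfection from cells grown in DMEM with 10% serum and was depleted of ribosomal RNA before stranded libraries were made. The comparison asks which transcripts change when this line loses IGF2BP1, and which of these changes differ from those in A549 (lung), ES2 (ovary) and MV3 (melanoma) cells, which had 3 siC and 3 siI1 libraries each. Those lines were harvested after 72 h, so cell line and harvest time cannot be told apart in any difference given here. A single pool of siRNAs was used, and effects of the pool on other transcripts cannot be told apart from effects of IGF2BP1 loss.

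IGF2BP1 is an RNA-binding protein with KH and RRM domains that is made in the embryo, is largely silent in adult tissue and returns in many carcinomas. It binds mRNAs, many of them carrying N6-methyladenosine, and is known for shielding them from decay, so that mRNAs of growth and cell-cycle proteins are among its best described partners. Pancreatic ductal carcinoma arises in the exocrine pancreas, and PANC-1 is known as a poorly differentiated member of the disease with mixed epithelial and mesenchymal traits.

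The labelled origin was checked against marker genes. Levels are in FPKM, fragments per kilobase of gene scaled to library size, which takes gene length and depth into account. Of 9 duct markers, 6 had a mean of at least 0.5 FPKM, among them the keratin genes KRT8, KRT18 and KRT19 and the ductal factor SOX9. Their summed level was 1353 to 1777 FPKM in siC and 2076 to 2231 FPKM in siI1. Of 8 markers of the classical subtype, 2 (FOXA2 and AGR2) reached 0.5 FPKM, at a sum of 27.9 to 31.8 FPKM in siC and 23.7 to 24.7 FPKM in siI1. None of the 8 acinar, 8 endocrine, 7 fibroblast, 6 leukocyte, 5 endothelial or 6 lung markers reached it in PANC1, each list summing to at most 1.16 FPKM in any library, and the acinar genes CPA1, CPB1, AMY2A, PNLIP and PTF1A were at 0 throughout. MITF was the only one of 6 melanoma markers and WT1 the only one of 5 ovarian markers at or above that level.

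Reads assigned to genes numbered 6532175 to 8472851 per library. Replicates of a group differed by more than sampling noise, with a chi-square per gene of 2.58 to 15.1, and the widest gap was between siC replicates 2 and 3. Part of that gap followed gene length: across 6312 protein-coding genes with at least 5 FPKM, the log2 ratio of siC replicate 3 to siC replicate 2 had a Spearman rho of 0.487 with length. The siI1 to siC ratio had a rho of -0.304, against -0.0864 in A549, 0.199 in ES2 and 0.103 in MV3. These are correlations across genes, which are not independent replicates. Values with the length trend removed therefore stand beside the cholesterol, mitosis, histone, cytosolic and mitochondrial ribosomal protein and respiratory chain groups. They are not given for the differences of gene groups between lines. The second property of the whole set was a larger share of 7SL RNA in siI1, described at the end. Bringing the libraries to an equal FPKM sum (the same-sum rescaling) shifted the median of all log2 fold changes by -0.64, from -0.04 to -0.68, and protein-coding genes moved by a median of -0.70. Under it 1208 of the 1510 higher protein-coding genes described below were under 0, and none of the 1927 lower ones was above 0. Directions below therefore hold for the scaling of the deposited values, and for single genes that rose by less than about 0.7 they turn under the rescaling. Small positive medians of gene groups turn too, such as that of mitochondrial ribosomal proteins (0.14 to -0.58). The rescaled median and its distance from the median of all genes are given only for some groups. These are the cholesterol enzymes, cytosolic ribosomal proteins, respiratory chain and axoneme.

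The targeted transcript fell in every siI1 library. IGF2BP1 (chr17:48997385-49056145, hg38, plus strand) stood at 11.2, 11.3 and 11.0 FPKM in siC and 2.75, 2.87 and 2.71 FPKM in siI1, and no siI1 library came near a siC library. On the log2(FPKM + 0.5) scale of every fold change here, which understates the change of low genes, siI1 minus siC was -1.83 ± 0.06 (SE), with an adjusted p of 2.27e-04 (limma across all genes, Benjamini-Hochberg). That fall was larger than the mean of the other lines (-1.32 in A549, -1.55 in ES2 and -1.52 in MV3), with a difference of -0.37 ± 0.06 (SE; adjusted p 7.15e-05). Its paralogue IGF2BP2 was at 16.5, 18.0 and 17.5 FPKM in siC and 19.9, 20.9 and 20.3 FPKM in siI1, a small rise without overlap between groups (log2 fold change 0.23 ± 0.06, adjusted p 0.0302). It did not pass without any 1 library other than siC replicate 2 (adjusted p 0.0633 to 0.0954), and turned to -0.51 under the same-sum rescaling. IGF2BP3 was at 15.4, 13.7 and 16.2 FPKM in siC and 13.5, 15.1 and 12.7 FPKM in siI1, with overlapping groups (log2 fold change -0.13 ± 0.09, adjusted p 0.340). The relation of IGF2BP2 to the other lines was not called (0.11 ± 0.08, adjusted p 0.353), and that of IGF2BP3 was (-0.22 ± 0.08, adjusted p 0.0348). The IGF2BP3 difference did not pass without PANC1 siC replicate 1 or 3 or siI1 replicate 1 or 3 (adjusted p 0.0804 to 0.136), without MV3 siC or siI1 replicate 1 (0.0509 and 0.0513), without A549 or ES2 among the other lines (0.0737 and 0.2599), or with the length trend removed (0.214).

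Of 15846 genes that reached a mean level of 0.5 FPKM, 11109 were protein-coding, and of these 1927 were lower (17.3%) and 1510 higher (13.6%) in siI1 at an adjusted p under 0.05 without a fold minimum. A change of 1 or more on the log2 scale was also met by 101 of the lower and 82 of the higher genes. Without siC replicate 1 the counts were 1083 lower and 842 higher. Without siI1 replicate 1 they were 1183 and 916, and without siI1 replicate 3 they were 1277 and 965. The higher count alone passed a 1.5-fold move without siI1 replicate 2 (931). The shares 17.3% and 13.6% are the background for the gene groups below. In the plot of fold change against level the largest falls lie far from the rest of the genes.

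**Figure D1:**
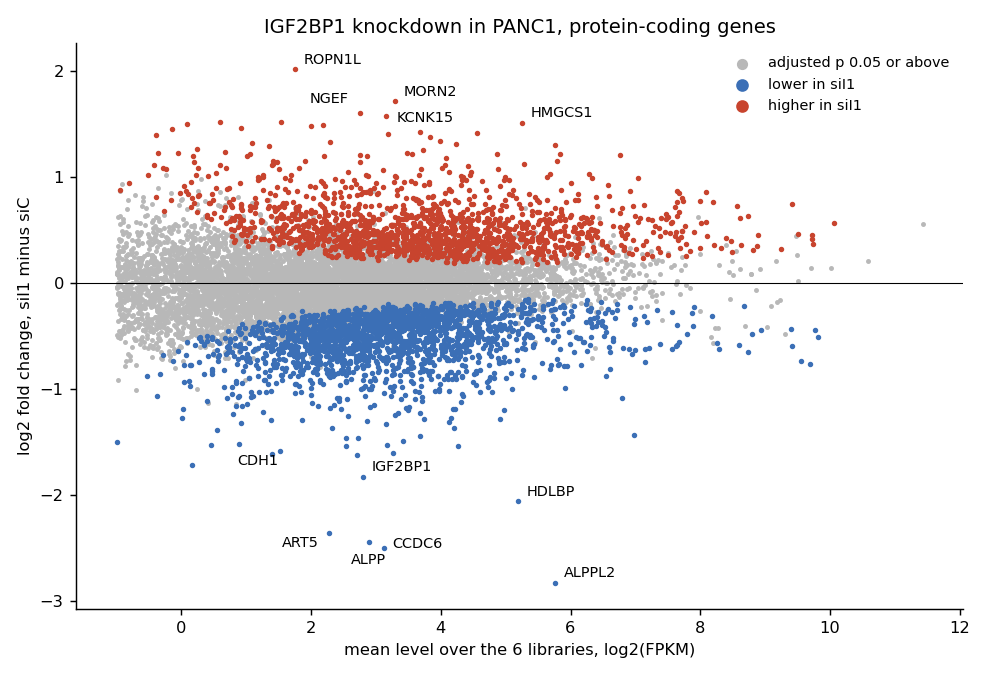
Log2 fold change (siI1 minus siC) of 11109 protein-coding genes in PANC1 against their mean level, log2(FPKM), over the 6 libraries; blue and red points passed an adjusted p of 0.05. ALPPL2 lies lowest at -2.83, and ROPN1L highest at 2.02; with all libraries rescaled to the same sum the median of all genes would sit 0.64 lower.

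The steepest loss among protein-coding genes was that of an alkaline phosphatase, and its neighbour in the genome fell too. ALPPL2, the germ-cell alkaline phosphatase, was at 94.1, 101 and 89.9 FPKM in siC and 12.6, 14.7 and 11.6 FPKM in siI1 (log2 fold change -2.83 ± 0.10, adjusted p 2.27e-04). Its neighbour ALPP, the placental enzyme, was at 12.6, 12.7 and 13.2 FPKM in siC and 1.91, 2.39 and 1.596 FPKM in siI1 (log2 fold change -2.45 ± 0.12, adjusted p 4.63e-04). Both are ectoenzymes held at the cell surface by a lipid anchor, and their genes lie side by side on chromosome 2 (chr2:232406844-232410714 and chr2:232378724-232382889). The sequences are close enough that reads can be split between them by the counting, so the share of each is uncertain. The other members of the family, ALPI and ALPL, reached at most 0.0452 FPKM (ALPI) and 0.158 FPKM (ALPL) in any library. The mean over both groups of ALPPL2 was at most 0.0824 FPKM in each of the other lines, so that the gene was not tested there. ART5, an ADP-ribosyltransferase of the cell surface, went from 9.12, 7.92 and 8.17 to 1.12, 1.47 and 1.12 FPKM (log2 fold change -2.36 ± 0.11, adjusted p 4.63e-04). AVPR2, the vasopressin V2 receptor, went from 3.61, 4.90 and 4.11 to 0.787, 1.04 and 1.27 FPKM (log2 fold change -1.62 ± 0.17, adjusted p 0.00209). Both were below the level filter in the other lines.

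Other steep falls were shared. CCDC6, a coiled-coil protein known as a fusion partner of the RET kinase, was at 13.7, 16.3 and 15.3 FPKM in siC and 2.63, 2.04 and 2.12 FPKM in siI1 (log2 fold change -2.50), beside -3.21 in A549, -2.74 in ES2 and -2.47 in MV3. HDLBP, which encodes vigilin, a protein with many KH domains that binds mRNA, was at 59.0, 62.7 and 56.2 FPKM in siC and 13.4, 14.4 and 13.5 FPKM in siI1 (log2 fold change -2.06), beside -2.39 in A549, -2.00 in ES2 and -2.10 in MV3. The PANC1 effect was not called different from the mean of the other lines for either (adjusted p of the difference 0.0740 and 0.260). By contrast, the nuclear envelope protein gene NEMP1 fell further in PANC1 (-1.63) than elsewhere (difference -0.55 ± 0.13 SE, adjusted p 0.00332). The zinc and manganese importer gene SLC39A14 (-1.60; difference -0.38, adjusted p 0.0139), C5orf15 (-1.54; difference -0.86, adjusted p 1.60e-06) and the phosphatase and actin regulator gene PHACTR2 (-1.54; difference -0.79, adjusted p 8.77e-05) did so too.

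The largest rise was that of ROPN1L, a gene low in control cells. This ropporin-like protein gene of the flagellum stood at 1.15, 1.42 and 0.590 FPKM in siC and 6.60, 4.76 and 5.63 FPKM in siI1 (log2 fold change 2.02 ± 0.23, adjusted p 0.00268). ROPN1L rose in A549 (1.69) and MV3 (1.44) too, and was below the level filter in ES2. MORN2, a MORN-repeat protein, stood at 4.28, 4.22 and 4.37 FPKM in siC and 16.6, 13.3 and 15.9 FPKM in siI1 (log2 fold change 1.71 ± 0.09, adjusted p 5.98e-04). These groups did not overlap for either gene. NGEF, the guanine nucleotide exchange factor ephexin, rose by 1.60 on the log2 scale, from 3.15, 3.29 and 2.83 to 10.7, 10.6 and 9.80 FPKM. The potassium channel gene KCNK15 rose by 1.57, from 4.54, 4.43 and 3.71 to 13.6, 13.0 and 14.1 FPKM, and had a mean of at most 0.0487 FPKM in each other line. The huntingtin-associated protein gene HAP1 rose by 1.52, from 1.27, 1.62 and 0.938 to 4.39, 4.54 and 4.68 FPKM. Further rises were those of CYS1, which encodes the ciliary protein cystin (1.42), DPCD, which is known from ciliary disease (1.38), the lysosome-positioning subunit BORCS6 (1.40), the pseudokinase TRIB1 (1.43), FAM222A (1.48) and the glutathione transferase GSTT2B (1.49). GSTT2B has a near-identical copy, and its count is uncertain for that reason. Some of these rises were shared. DPCD rose in A549 (0.68), ES2 (0.38) and MV3 (0.66) too, though by less than in PANC1 (difference 0.81). MORN2 rose in A549 (0.75) and MV3 (0.41) as well. In MV3 there were also called rises of FAM222A (0.74), BORCS6 (0.31) and TRIB1 (0.14). Among 352 protein-coding genes tested in PANC1 that had a mean under 0.5 FPKM in each other line, 37 were lower and 27 higher. These are smaller shares than the 17.3% and 13.6% of all protein-coding genes tested.

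The cholesterol pathway moved together. Cells build cholesterol from acetyl-CoA through mevalonate, farnesyl pyrophosphate, squalene and lanosterol, and the transcription factor SREBF2 is known to switch the whole set of enzyme genes on when sterol in the endoplasmic reticulum runs low. Of 20 enzyme genes, all of them tested, 19 rose and none fell, where 13.6% of protein-coding genes were higher, and their median log2 fold change was 0.76 (0.02 under the same-sum rescaling, 0.69 above the median of all genes, with 8 of the 19 below 0). The mean of the list over its siC mean was 0.82, 0.79 and 0.79 in the siI1 libraries on the log2 scale, while the siC libraries lay between -0.05 and 0.04. Under the same-sum rescaling 5 members of the wider list of 26 were called higher, against 20 without it. The count of 19 was the same without any 1 of the 6 libraries and with the length trend removed.

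At the entry to the pathway, HMGCS1, the synthase that makes HMG-CoA, was at 19.9, 17.2 and 21.5 FPKM in siC and 59.3, 52.0 and 58.0 FPKM in siI1. The groups lay far apart, and this was the largest rise of the pathway (log2 fold change 1.51 ± 0.10, adjusted p 7.54e-04). The thiolase ACAT2 rose from 28.9, 31.6 and 27.8 to 56.2, 51.6 and 50.8 FPKM (log2 fold change 0.83). Of the mevalonate steps, mevalonate kinase MVK rose from 4.31, 4.10 and 4.26 to 10.9, 10.5 and 9.67 FPKM (1.20) and the decarboxylase MVD from 10.2, 10.9 and 9.34 to 24.6, 23.5 and 22.7 FPKM (1.18). PMVK, the kinase between them, was the member that did not pass the test, at 23.4, 22.4 and 19.6 FPKM in siC and 25.5, 23.6 and 23.6 FPKM in siI1 (log2 fold change 0.15 ± 0.08, adjusted p 0.211). In this branch the values rose on both sides of PMVK. The isoprenoid enzymes IDI1 (0.69) and FDPS (0.39) followed. Squalene synthase FDFT1 rose from 14.2, 14.97 and 11.1 to 26.1, 25.8 and 27.8 FPKM (0.97), squalene epoxidase SQLE by 0.54 and lanosterol synthase LSS by 0.63. Among the late steps that trim lanosterol to cholesterol, the demethylating oxidase MSMO1 rose from 31.2, 33.1 and 29.2 to 79.4, 76.6 and 76.5 FPKM (1.30) and the dehydrogenase NSDHL from 32.4, 38.1 and 32.2 to 77.2, 72.3 and 79.7 FPKM (1.15). HSD17B7 (0.91), CYP51A1 (0.86), DHCR7 (0.78), EBP (0.75), TM7SF2 (0.64) and SC5D (0.30) rose too. In the plot of the enzymes by library, siC and siI1 points do not overlap for any of the 18 genes drawn.

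**Figure D2:**
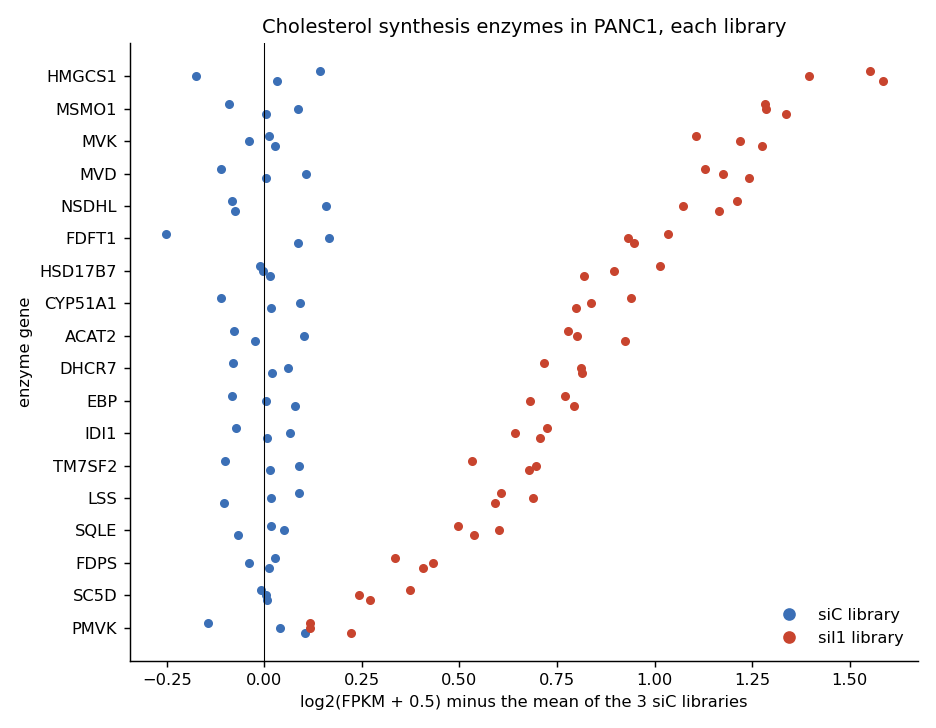
Log2(FPKM + 0.5) of 18 cholesterol synthesis enzyme genes in each PANC1 library, minus the mean of the 3 siC libraries (blue siC, red siI1). The 3 siI1 libraries lie to the right of the 3 siC libraries in each row, by a fitted 1.51 for HMGCS1 down to 0.15 for PMVK; under the same-sum rescaling 8 of the 19 list members that rose fall below 0.

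Regulators of the pathway did not move as a block. SREBF2 was at 16.0, 14.99 and 15.4 FPKM in siC and 20.4, 21.8 and 22.1 FPKM in siI1 (log2 fold change 0.46 ± 0.06, adjusted p 0.00306), whereas SREBF1, the relative that serves mainly fatty acid genes, was at 12.2, 12.7 and 13.2 FPKM in siC and 7.36, 6.44 and 6.53 FPKM in siI1 (log2 fold change -0.86 ± 0.07, adjusted p 0.00127). Neither was particular to PANC1 by the test of the difference. SREBF1 fell in A549 (-0.98), ES2 (-0.81) and MV3 (-0.50) too (difference -0.10, adjusted p 0.368). SREBF2 rose in ES2 (0.54) and MV3 (0.23) and was not called in A549 (0.14; difference 0.16, adjusted p 0.0858). INSIG1, which retains the SREBF proteins in the endoplasmic reticulum, was at 25.6, 24.8 and 25.3 FPKM in siC and 29.8, 31.7 and 26.6 FPKM in siI1 (log2 fold change 0.21 ± 0.07, adjusted p 0.0811), and the sterol sensor SCAP (0.11) and the sterol carrier STARD4 (0.04) did not pass either. Genes of fatty acid synthesis were split, with 4 lower (1 or 2 without any library but siC replicate 2) and 3 higher of 10, for instance ACLY at 0.47 and the desaturase FADS1 at -0.49.

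The enzymes were compared with the other lines. For 18 of the 20 enzymes the PANC1 effect was the more positive, where 18.7% of protein-coding genes were, and the median difference was 0.64. Counts of differences in this and the later gene groups are for the deposited scaling and were not repeated under the same-sum rescaling. In their own fits 2 of the 20 rose in A549 (background 7.94%), 12 in ES2 (13.4%) and 8 in MV3 (19.6%), with 1 lower in each. HMGCS1 stood (siI1 minus siC, log2) at 0.20 in A549, 1.35 in ES2 and 0.54 in MV3 (difference 0.81 ± 0.12, adjusted p 3.74e-05). DHCR7 stood (siI1 minus siC, log2) at -0.26 in A549, 0.33 in ES2 and -0.17 in MV3 (difference 0.81, adjusted p 3.77e-07), and MVK -0.34 in A549, 0.64 in ES2 and 0.07 in MV3 (difference 1.08, adjusted p 2.60e-06). The difference was not called for SC5D, for instance (0.26, adjusted p 0.101).

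RefSeq promoter windows (GRCh38.p14, 250 bases before to 50 after a start site) were found for 15 of the 20 enzymes. The letters CCAAT, read on both strands and known as the box bound by NF-Y, occurred in 13 of the 15 (86.7%), against 39.7% of all 27305 genes in the table and 43.4% of the protein-coding genes tested in PANC1 with a window. A match describes letters, not binding. The 4 steepest risers with a match are shown 5′ to 3′ on the gene's strand, with the box (or its reverse complement ATTGG) in capitals.
HMGCS1 (chr5:43313551-43313578, minus strand): gtttccttttgATTGGtagaagccggac
MSMO1 (chr4:165327473-165327500, plus strand): cggtgccgaccATTGGctggctctgcag
MVK (chr12:109573573-109573600, plus strand): tttcaatttttATTGGttcgcagttctc
MVD (chr16:88663234-88663261, minus strand): cgatcccgtccATTGGctgagaggtaat

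The transcripts of cell division went the other way. Of 84 genes of mitosis, all tested, 71 fell and 1 rose, where 17.3% of protein-coding genes were lower, with a median log2 fold change of -0.61. With the length trend removed 73 fell, at a median of -0.65. The mean of the list lay at -0.62, -0.61 and -0.62 in siI1 relative to siC, and between -0.01 and 0.01 in the control libraries. In such bulk samples fewer cycling cells and less RNA per cell cannot be told apart. By role, 35 of 38 spindle, condensin and exit genes, 19 of 24 kinetochore and checkpoint genes, 13 of 17 kinases and cyclins and 4 of 5 transcription factors (2 without siC replicate 1 or siI1 replicate 2 or 3) fell. CENPF, a protein of the outer kinetochore, was at 42.0, 37.1 and 49.5 FPKM in siC and 16.2, 18.1 and 17.5 FPKM in siI1 (log2 fold change -1.28 ± 0.11, adjusted p 0.00133). ASPM, which organises spindle poles, was at 15.03, 13.8 and 18.9 FPKM in siC and 6.89, 6.83 and 6.47 FPKM in siI1 (log2 fold change -1.17 ± 0.12, adjusted p 0.00199). The kinetochore motor CENPE (-1.07) and the cohesin guardian SGO1 (-1.04) were next.

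These falls exceeded those of the other lines for many members. The PANC1 effect was the more negative for 44 of 84 mitosis genes and the more positive for 1, against a background of 20.2% and 18.7%, and the median difference was -0.29. ASPM stood (siI1 minus siC, log2) at -0.13 in A549, 0.06 in ES2 and -0.25 in MV3, and the difference of -1.06 ± 0.10 (SE) had an adjusted p of 4.11e-07. In the lines' own fits 25 members fell in A549 (background 11.4%), 34 in ES2 (17.9%) and 80 in MV3 (26.8%). MV3 thus had more members called lower than PANC1, from libraries with at least 15572492 reads.

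Genes of S phase showed the same direction with smaller values. Of 49 DNA replication genes, all tested, 34 fell and 2 rose (median -0.45), namely 14 of 18 licensing genes (9 without siC replicate 3), 14 of 21 fork and clamp genes and 6 of 10 polymerase genes. CLSPN, which encodes the checkpoint adaptor claspin, was at 14.1, 17.0 and 15.2 FPKM in siC and 7.49, 8.48 and 7.63 FPKM in siI1 (log2 fold change -0.93). TIMELESS, a protector of the moving fork, was at 16.7, 17.2 and 17.2 FPKM in siC and 8.97, 8.26 and 9.31 FPKM in siI1 (-0.91). The helicase subunit GINS1 (-0.88) and the clamp loader subunit RFC3 (-0.87) fell in like measure. The PANC1 effect was the more negative for 21 of 49 and the more positive for 3 (background 20.2% and 18.7%). In the lines' own fits 11 replication genes fell in A549 (background 11.4%), 14 in ES2 (17.9%) and 44 in MV3 (26.8%). MV3 thus had more members called lower than PANC1, at a median of -0.50. In recombination repair 17 of 32 genes fell in PANC1 and none rose, and 11 were lower without siC replicate 1. Among them were the Fanconi proteins FANCD2 (-1.16) and FANCI (-0.93), and BRCA2 (-0.87). Nucleotide synthesis had 8 lower and 1 higher of 24 (5 lower without siC replicate 1, siC replicate 3 or siI1 replicate 1), with the thymidylate enzymes DTYMK (-1.03) and TYMS (-0.87) among the falls. E2F factors and pocket proteins had 6 lower and 1 higher of 13, among them RBL1 (-0.96) and E2F2 (-0.90). Repair genes lower in A549, ES2 and MV3 numbered 4, 7 and 24 of 32, where 11.4%, 17.9% and 26.8% of protein-coding genes were lower. The repair shares in A549 and ES2 were thus near the background. For nucleotide synthesis these counts were 5, 10 and 17 of 24, and for E2F and pocket genes 3, 5 and 11 of 13.

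Around the G1 decision, CDK6 was at 9.52, 9.72 and 10.2 FPKM in siC and 4.51, 4.46 and 4.26 FPKM in siI1 (log2 fold change -1.07 ± 0.06, adjusted p 6.10e-04), and CDK4 at 43.1, 45.2 and 38.2 FPKM in siC and 31.1, 30.5 and 30.03 FPKM in siI1 (log2 fold change -0.45 ± 0.07, adjusted p 0.00685). Cyclin D3 (CCND3) rose instead, at 5.46, 5.35 and 5.13 FPKM in siC and 11.0, 10.9 and 10.1 FPKM in siI1 (log2 fold change 0.94 ± 0.06, adjusted p 8.57e-04). In this list 5 of 12 tested members were lower and 3 higher, and 2 to 3 were lower without any single library other than siI1 replicate 2. The CDK6 fall and the CCND3 rise each differed from the other lines, by -0.76 (adjusted p 1.83e-07) and 0.98 (adjusted p 2.46e-08), while that of CDK4 did not pass (-0.02, adjusted p 0.879).

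Histone mRNAs of the replication-dependent class, which end in a stem-loop and have no poly(A) tail, are kept in RNA that is not selected for poly(A). Of 58 tested, 27 fell and none rose, with a median of -0.48. With the length trend removed 26 fell, at a median of -0.54. The copies of a class are near-identical, so their separate counts are uncertain. The linker histone HIST1H1D was at 208, 209 and 139 FPKM in siC and 70.7, 62.7 and 68.1 FPKM in siI1 (log2 fold change -1.44 ± 0.16, adjusted p 0.00265). The call count was unstable, at 5 without siC replicate 1 or siI1 replicate 3, 6 without siI1 replicate 1, 7 without siI1 replicate 2, 14 without siC replicate 2 and 41 without siC replicate 3. It was 11 without a filter on low values and 16 without the intensity trend. The mean of the list was -0.32 in siC replicate 3 and 0.25 in siC replicate 2, against -0.48 to -0.41 in siI1. Against the other lines 10 of 51 differences were called more positive and 1 more negative, where the background was 18.7% and 20.2%, at a median difference of 0.29. In their own fits 43 of 56, 58 of 61 and 54 of 60 histone genes were lower in A549, ES2 and MV3 (background 11.4%, 17.9% and 26.8%).

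Promoter windows set the division lists apart by their letters. The E2F letters (TTTCCCGC, TTTGGCGC, TTTGCCGC or TTTCGCGC, both strands) occurred in 21 of 43 matched DNA replication genes (48.8%), against 3.99% of all genes in the table and 7.05% of the protein-coding genes tested. The letters TTTGAA, known as the cell-cycle genes homology region (CHR) through which many genes of mitosis are held down, occurred in 49 of 70 mitosis genes (70%) and 2 of 43 replication genes, against 18.2% of all genes and 13.3% of those tested. CCAAT was found in 52 of 70 mitosis and 51 of 61 histone windows. The spindle group held TTTGAA in 29 of 34 windows and the kinases and cyclins in 7 of 13. The steepest fallers with a match are shown, with the E2F letters of the first 4 and the CHR letters of the last 4 in capitals.
CLSPN (chr1:35769966-35769993, minus strand): ctctggctggGCGGGAAAgcaagaacag
GINS1 (chr20:25407668-25407695, plus strand): gctttgttcgGCGCCAAAgcgcggagcg
RFC3 (chr13:33818084-33818111, plus strand): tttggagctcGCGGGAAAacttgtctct
GINS2 (chr16:85688968-85688995, minus strand): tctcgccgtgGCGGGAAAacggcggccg
CENPF (chr1:214603217-214603244, plus strand): ggtggcggctgcgggcagTTTGAAttag
ASPM (chr1:197146766-197146793, minus strand): ggatgcaatcaTTCAAAtgaagcgccgc
ZWINT (chr10:56361274-56361301, minus strand): tcgactgtgacTTCAAAgtaatcttagg
KIF15 (chr3:44761748-44761775, plus strand): caagcgccaaaTTCAAAtttgcggccat

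Ribosomal protein mRNAs rose. Of 79 mRNAs of cytosolic ribosomal proteins, 58 rose and none fell, with a median of 0.49 (-0.26 under the same-sum rescaling, 0.41 above the median of all genes, with none called higher and 50 of the 58 below 0). Both subunits took part, with 35 of 47 large and 23 of 32 small subunit genes higher (23 large without siI1 replicate 1 or 3, and 10 to 13 small without siC replicate 1 or any siI1 library). RPL18 was at 49.9, 56.6 and 43.1 FPKM in siC and 91.2, 86.0 and 89.6 FPKM in siI1 (log2 fold change 0.84 ± 0.10, adjusted p 0.00291), and RPL27 at 162, 168 and 139.8 FPKM in siC and 278, 263 and 263 FPKM in siI1 (log2 fold change 0.78 ± 0.08, adjusted p 0.00214). Without siI1 replicate 1 the count was 33, and without siC replicate 1 or siI1 replicate 3 it was 34. These are short genes, and with the length trend removed 49 were higher at a median of 0.42; the part of length in the result was not tested further. Reads can also be shared with their many processed pseudogenes. The PANC1 effect was the more positive for 59 of 79, where 18.7% of protein-coding genes were. This count holds for the deposited scaling only. Under the same-sum rescaling 34 differences were higher over all protein-coding genes, against 1800 without it. In their own fits 47 were higher in A549 (background 7.94%), 12 in ES2, near its background of 13.4%, and none in MV3 (19.6%), where 15 were lower (26.8%).

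Ribosomal protein mRNAs are known to begin with a C followed by a pyrimidine tract, the TOP motif, through which their translation follows growth signals. A C followed by at least 4 pyrimidines at the exact start base was found in 47 of 63 matched genes (74.6%), against 5.14% of all genes in the table and 7.50% of those tested. The runs of the 4 steepest risers with a match start 6 bases before the start site, and the tract is in capitals.
RPL18 (chr19:48619157-48619184, minus strand): cgttctCTCTTTCCggacctggccgagc
RPS18 (chr6:33272069-33272096, plus strand): tccgctCTCTCTTCCacaggaggcctac
RPL35 (chr9:124861936-124861963, minus strand): tacttcCTCTTTCCCTCggagcgggcgg
RPL39 (chrX:119791609-119791636, minus strand): cagcttCCCTCCTCTTCCTTTCTCCgcc

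Nuclear genes of the respiratory chain rose less. Of 74 tested subunits 32 rose and 1 fell (median 0.32, and -0.41 under the same-sum rescaling, 0.27 above the median of all genes). COX7B, a subunit of cytochrome c oxidase, was at 37.9, 36.1 and 35.1 FPKM in siC and 64.9, 54.1 and 71.1 FPKM in siI1 (log2 fold change 0.78 ± 0.10, adjusted p 0.00376), and the ATP synthase subunit ATP5L at 82.7, 93.0 and 76.5 FPKM in siC and 130.2, 126 and 143 FPKM in siI1 (log2 fold change 0.66 ± 0.09, adjusted p 0.00397). Leaving out a library left from 13 (without siC replicate 1 or siI1 replicate 1) to 19 higher among those that moved the count by over 1.5 times, which were all but siC replicate 2. With the length trend removed 24 were higher. For 45 of 73 the PANC1 effect was the more positive and for none the more negative. Mitochondrial ribosomal proteins had 16 higher and 7 lower of 78 (7 higher with the length trend removed, and 6 to 8 without any library other than siC replicate 2; 1 lower without siC replicate 1 and 2 to 4 without siC replicate 3 or any siI1 library), against 13.6% and 17.3% of protein-coding genes.

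Single genes were then compared with the other lines. Among protein-coding genes that fell in PANC1 without overlap, at a mean of at least 2 FPKM, the 10 most negative called differences were those of COL5A2, ABCC3, LOXL2, PLOD2, CD109, TFPI, S100A2, OGFRL1, HIP1 and CACNG8. The PANC1 fall of S100A2 (-0.71, adjusted p 0.0439), at 10 to 36 reads per library, did not pass without any 1 library (adjusted p 0.0700 to 0.139). It did not pass without a filter on low values (0.103) or without the intensity trend (0.0557) either. COL5A2, a fibril-forming collagen chain, was at 24.7, 22.8 and 28.8 FPKM in siC and 10.5, 10.3 and 9.62 FPKM in siI1 in PANC1 (log2 fold change -1.28 ± 0.09, adjusted p 9.53e-04). In the other lines siI1 minus siC was -0.12 in A549, 0.90 in ES2 and 0.22 in MV3, and the difference was -1.61 ± 0.09 (SE, adjusted p 9.37e-10). LOXL2, an oxidase that crosslinks collagen, was at 22.7, 23.3 and 20.4 FPKM in siC and 13.9, 15.6 and 13.96 FPKM in siI1 (log2 fold change -0.59 ± 0.08, adjusted p 0.00357). It rose in the other lines, by 0.61 in A549, 1.10 in ES2 and 0.48 in MV3 (difference -1.32, adjusted p 1.25e-10). PLOD2, which hydroxylates collagen lysines, was at 18.6, 18.6 and 20.8 FPKM in siC and 16.4, 16.6 and 16.4 FPKM in siI1, a small fall (log2 fold change -0.22 ± 0.06, adjusted p 0.0457) that did not pass with the length trend removed (-0.15, adjusted p 0.0983) or without any 1 library other than siC replicate 2 (adjusted p 0.0802 to 0.117). PLOD2 rose by 1.58 in A549, 1.13 in ES2 and 0.60 in MV3. CD109, a lipid-anchored antagonist of TGF-beta signalling, was at 17.8, 16.6 and 19.8 FPKM in siC and 8.32, 7.98 and 7.86 FPKM in siI1 (log2 fold change -1.12 ± 0.08, adjusted p 8.57e-04; difference -1.28, adjusted p 4.36e-10). The clathrin adaptor HIP1 was at 7.56, 7.93 and 7.08 FPKM in siC and 3.398, 3.57 and 2.85 FPKM in siI1 (log2 fold change -1.09 ± 0.10, adjusted p 0.00149; difference -1.16, adjusted p 5.68e-08). The drug and bile salt exporter ABCC3 (-0.54; adjusted p 0.0559 without siC replicate 1) and TFPI, the inhibitor of tissue factor (-0.72), fell in PANC1 while they rose in the 3 other lines.

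Turned signs were counted over all genes. Of 1782 protein-coding genes lower in PANC1 and tested in each line, 1022 had a PANC1 effect called more negative than the other lines' mean, 242 were higher in at least 1 other line and 14 were higher in all 3. Of 1343 higher genes, 915 had a difference called in the same direction, 266 were lower in at least 1 other line and 10 were lower in all 3. The call in PANC1 and the difference share the PANC1 libraries, so these shares describe the overlap and test nothing. The 14 genes, chosen after their values were seen, were TFPI, WWTR1, MAGT1, ABCC3, TMEM30A, OGFRL1, LOXL2, BMP2K, MBNL2, PLOD2, AXL, YES1, DPY19L3 and KIRREL. AXL, a receptor tyrosine kinase of mesenchymal carcinoma cells, was at 68.2, 67.5 and 65.6 FPKM in siC and 52.6, 50.6 and 50.7 FPKM in siI1 (log2 fold change -0.38 ± 0.05, adjusted p 0.00292), beside 0.48 in A549, 0.91 in ES2 and 0.56 in MV3. WWTR1 (TAZ), a partner of TEAD factors, and the SRC-family kinase YES1 fell by less (-0.19 and -0.18). The 10 with the reverse pattern were GGA2, EHD4, SGTA, CDR2L, ERRFI1, KLHL21, GATAD2A, GPS1, SSSCA1 and MB21D2.

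The extracellular matrix as a list did not stand out in PANC1 itself. Of 24 tested collagens, laminins and integrins, 5 were lower (10 by limma voom on recovered reads) and 3 higher, close to the background, at a median of -0.23. The falls included the integrin subunits ITGA3, at 55.4, 55.8 and 58.0 FPKM in siC and 30.7, 31.7 and 28.3 FPKM in siI1 (log2 fold change -0.89 ± 0.06, adjusted p 8.28e-04), and ITGB4 (-0.82), the partner of ITGA6 in hemidesmosomes, while the laminin chain LAMA4 rose (0.62). The PANC1 effect was nevertheless the more negative for 12 of 17 and the more positive for 1, and 21 members rose in ES2 and 19 in MV3 (background 13.4% and 19.6%). TGF-beta receptors and SMADs resembled this, with 5 of 15 lower, none higher and a more negative PANC1 effect for 10 of 15. TGFBR1 was at 6.07, 6.13 and 7.08 FPKM in siC and 3.74, 3.69 and 3.89 FPKM in siI1 (log2 fold change -0.69 ± 0.08, adjusted p 0.00292), and the BMP receptor BMPR2 at -0.60. The ligand TGFB1 (0.59) and the target ID3 (0.88) rose. Of 18 tested receptor tyrosine kinases 6 fell (3 without siI1 replicate 1 or siI1 replicate 3) and none rose. MET, the receptor for hepatocyte growth factor, was at 41.3, 39.8 and 44.5 FPKM in siC and 23.0, 22.6 and 21.1 FPKM in siI1 (log2 fold change -0.90 ± 0.06, adjusted p 8.69e-04; difference -0.71, adjusted p 1.68e-08). RET (-0.78), ERBB2 (-0.49) and MST1R (-0.44) fell as well.

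Among protein-coding genes that rose by the same criteria, the 10 most positive called differences were those of CTGF, TRIB1, TMEM158, MORN2, CXCL1, ERRFI1, SERTAD1, BORCS6, SNPH and JUND. The PANC1 rise of TMEM158 (0.87) did not pass without siC replicate 1 or 3 or siI1 replicate 2 or 3 (adjusted p 0.0501 to 0.0661). CTGF, a secreted matrix protein long used as a YAP target, was at 16.4, 30.04 and 17.8 FPKM in siC and 34.6, 38.88 and 50.6 FPKM in siI1 (log2 fold change 0.97 ± 0.25, adjusted p 0.0342), a rise that did not pass without any 1 library other than siC replicate 2 (adjusted p 0.0638 to 0.112). CTGF stood (siI1 minus siC, log2) at -0.51 in A549, -0.64 in ES2 and -0.47 in MV3, and the difference was 1.51 ± 0.26 (SE, adjusted p 2.26e-04). CXCL1, a chemokine for neutrophils, was at 7.93, 7.43 and 7.44 FPKM in siC and 18.6, 18.5 and 19.3 FPKM in siI1 (log2 fold change 1.25 ± 0.06, adjusted p 4.63e-04; difference 1.25, adjusted p 1.01e-09). ERRFI1, an inhibitor of the EGF receptor, was at 70.6, 72.7 and 68.5 FPKM in siC and 107, 103 and 103 FPKM in siI1 (log2 fold change 0.56 ± 0.05, adjusted p 0.00144), against -0.63 in A549, -0.68 in ES2 and -0.72 in MV3; under the same-sum rescaling its PANC1 value turned to -0.19. The pseudokinase TRIB1 was at 6.44, 6.76 and 6.96 FPKM in siC and 17.4, 17.8 and 21.8 FPKM in siI1 (difference 1.35, adjusted p 1.02e-08). The AP-1 subunit JUND was at 10.6, 14 and 10.7 FPKM in siC and 17.7, 22.5 and 24.5 FPKM in siI1 (log2 fold change 0.85 ± 0.15, adjusted p 0.0109), and JUN, chosen by its list, at 14.8, 15.4 and 12.5 FPKM in siC and 27.97, 28.1 and 31.7 FPKM in siI1 (log2 fold change 1.02 ± 0.09, adjusted p 0.00162). In the list of YAP and TEAD genes 9 of 25 were lower and 3 higher, YAP1 itself being at 42.2, 43.8 and 45.1 FPKM in siC and 18.4, 19.9 and 18.2 FPKM in siI1 (log2 fold change -1.20 ± 0.06, adjusted p 4.63e-04).

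Junction genes split by molecule. CDH1, the epithelial cadherin, was at 4.83, 4.79 and 4.03 FPKM in siC and 1.42, 1.37 and 0.816 FPKM in siI1 (log2 fold change -1.59 ± 0.17, adjusted p 0.00237). EPCAM was at 3.64, 3.92 and 3.21 FPKM in siC and 2.44, 1.39 and 2.001 FPKM in siI1 (-0.76) and the tight-junction gene CLDN1 at 12.8, 14.3 and 14.3 FPKM in siC and 9.06, 9.85 and 10.4 FPKM in siI1 (-0.48). JUP, or plakoglobin, which links cadherins to the cytoskeleton, rose at 34.1, 39.0 and 29.4 FPKM in siC and 75.4, 87.5 and 76.6 FPKM in siI1 (log2 fold change 1.22 ± 0.11, adjusted p 0.00165). The keratin genes KRT8 (0.45) and KRT19 (0.46) rose too. They were the 2 called members of the duct markers, of which none was called without siC replicate 1 or any 1 siI1 library, and the 6 tested duct markers ranged from -0.54 to 0.62. Of 16 tested epithelial genes 4 were lower (2 without siC replicate 1) and 3 higher (1 without siC replicate 1 or any siI1 library). Of 9 tested mesenchymal genes 3 were lower and 2 higher, the falls being those of S100A4 (-0.75), SPARC (-0.41) and LOXL2. In A549, where CDH1 was also expressed, its log2 fold change was -0.90, that of JUP -0.71 and that of KRT19 -0.53.

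RNA-binding and folding genes fell in part. Of 19 hnRNP genes, which package nascent transcripts, 14 fell, 9 without siI1 replicate 1, and 1 rose (median -0.48), and 12 differences were the more negative and 5 the more positive (background 20.2% and 18.7%). SYNCRIP, an hnRNP known to bind with IGF2BP1, was at 24.8, 26.7 and 27.1 FPKM in siC and 14.2, 14.2 and 13.2 FPKM in siI1 (log2 fold change -0.89 ± 0.06, adjusted p 8.57e-04), and HNRNPH3 at 15.05, 15.5 and 21.0 FPKM in siC and 7.68, 8.26 and 8.21 FPKM in siI1 (log2 fold change -1.04 ± 0.13, adjusted p 0.00335). Among all 60 splicing factors 23 fell and 5 rose (14 lower without siC replicate 1 or siI1 replicate 1, 15 without siI1 replicate 2, and 3 higher without siC replicate 1 or 3). Of 14 chaperones and folding enzymes of the endoplasmic reticulum 6 fell and none rose, and 9 differences were the more negative. HSP90B1 (GRP94) was at 71.9, 74.7 and 79.6 FPKM in siC and 42.9, 43.7 and 43.9 FPKM in siI1 (log2 fold change -0.79 ± 0.05, adjusted p 8.57e-04; difference -0.73, adjusted p 7.19e-09). The stress factor ATF3 rose from 2.17, 1.80 and 1.92 to 4.92, 4.57 and 3.94 FPKM (1.01). Of 24 mRNAs earlier reported as IGF2BP1 targets, 19 were tested, 8 fell and 2 rose. MKI67, the proliferation antigen, was at 19.98, 31.2 and 22.0 FPKM in siC and 10.9, 13.1 and 14.9 FPKM in siI1 (log2 fold change -0.87 ± 0.19, adjusted p 0.0188), and the ubiquitin-conjugating enzyme CDC34 at 23.0, 28.01 and 22.6 FPKM in siC and 45.5, 42.7 and 43.5 FPKM in siI1 (log2 fold change 0.83 ± 0.09, adjusted p 0.00227).

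Genes of the axoneme, the motor skeleton of motile cilia, were low. Of 57 members 23 passed the level filter, and 7 of these were called higher and none lower, which describes them only, as a low gene can pass through the group in which it is high. The median was 0.31 (-0.37 under the same-sum rescaling, 0.31 above the median of all genes). DNAAF3, a dynein assembly factor, was at 0.757, 0.605 and 0.866 FPKM in siC and 2.48, 1.91 and 2.91 FPKM in siI1 (log2 fold change 1.23 ± 0.18, adjusted p 0.00537), and ZMYND10, another, at 0.243, 0.352 and 0.208 FPKM in siC and 1.496, 1.12 and 1.26 FPKM in siI1; ZMYND10 had a siC mean of 0.267 FPKM and passed the filter through siI1 alone. Against the other lines 2 of 15 differences were the more positive and 4 the more negative, near the background of 18.7% and 20.2%. Intraflagellar transport had 5 higher and 3 lower of 29, 2 or 3 being higher without siC replicate 1 or 3 or siI1 replicate 1 or 2. Its PANC1 effect was the more negative for 10 of 28, and 20 of 29 members rose in MV3 (background 19.6%).

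Other lists had few called members or moved both ways. Hypoxia-response genes had 2 higher and none lower of 16, while 11 were higher in A549 (background 7.94%). Glycolysis had 4 higher and 2 lower of 20, with ALDOA at 0.80 and the glucose carrier SLC2A1 at -0.48. The p53 targets had 5 higher and 2 lower of 23, with TP53I3 at 0.79 and MDM2 at -0.85. Interferon-stimulated genes had 4 each way of 22, and MHC class I presentation had 3 lower and none higher of 12. NF-kB and cytokine genes had 4 lower and 2 higher of 18. The RAS and MAP kinase list had 6 each way of 31, with NRAS at -0.85 and MAPK3 at 0.75. The proteasome had 9 lower and none higher of 31, lysosomal genes 7 lower and 5 higher of 30, and translation factors 6 each way of 32. Many of these small counts depended on single libraries. Lysosomal genes had 2 or 3 lower and 3 higher without any library other than siC replicate 2, and translation factors 2 lower without siC replicate 1 or siI1 replicate 1 or 3 and 2 or 3 higher without any but siC replicate 2. Without siC replicate 1 or siI1 replicate 3 the RAS and MAP kinase list had 3 lower. Interferon-stimulated genes had 2 lower without siC replicate 1 or 3 or siI1 replicate 1 or 3, and 2 and 1 higher without siC replicate 1 and 3. NF-kB and cytokine genes had 2 lower without any library but siC replicate 2, which itself left 4 higher. Over all lists, of 39 counts between 1 and 3 called members 26 moved by over 1.5 times without some library, and such counts are given as a description. In the plot of list medians the cholesterol enzymes, the ribosomal proteins and the respiratory chain stand highest in PANC1, and mitosis stands lowest.

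**Figure D3:**
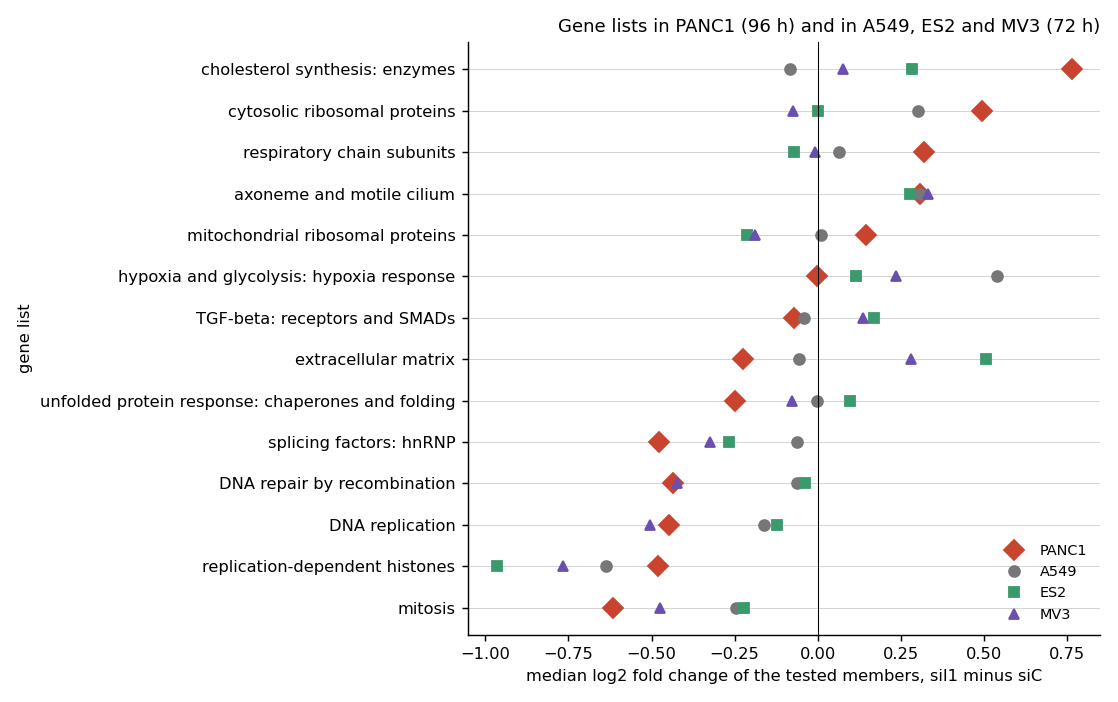
Median log2 fold change (siI1 minus siC) of the tested members of 14 gene lists in PANC1 (red diamonds, 96 h) and in A549, ES2 and MV3 (grey, green and purple, 72 h). The PANC1 median is 0.76 for cholesterol enzymes and -0.61 for mitosis; under a same-sum rescaling of PANC1 the ribosomal protein, respiratory chain, mitochondrial ribosomal protein and axoneme medians fall below 0.

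Abundant nuclear RNAs were lower in siI1. MALAT1, a nuclear RNA of splicing speckles, was at 684, 679 and 938 FPKM in siC and 245, 237 and 332 FPKM in siI1 (log2 fold change -1.50 ± 0.18, adjusted p 0.00292). NEAT1, the scaffold of paraspeckles, was at 74.9, 41.2 and 111 FPKM in siC and 22.8, 17.1 and 22.1 FPKM in siI1 (log2 fold change -1.75 ± 0.34, adjusted p 0.0143). Groups did not overlap for either, though siC replicate 3 was highest for both, and the siC values of NEAT1 spread widely. Both neighbour each other on chromosome 11 (chr11:65422774-65445540 and chr11:65497640-65508073). In the other lines siI1 minus siC was -0.22 in A549, 0.11 in ES2 and 0.71 in MV3 for MALAT1 and -0.23 in A549, 0.31 in ES2 and -0.09 in MV3 for NEAT1. The differences from their mean were -1.70 ± 0.16 (SE, adjusted p 6.82e-07) and -1.74 ± 0.28 (SE, adjusted p 1.29e-04). Of 319 lincRNAs tested in each line, 5.96% had a lower and 5.33% a higher PANC1 effect. The NEAT1 fall did not pass without siC replicate 1 (-1.70, adjusted p 0.0601) or without siI1 replicate 2 (-1.62, adjusted p 0.0558).

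The 7SL RNA, the RNA core of the signal recognition particle that brings secretory ribosomes to the endoplasmic reticulum, took a larger share of reads in each siI1 library. The class holding it (misc_RNA) took 12.5%, 15.5% and 10.2% of reads in siC and 22.3%, 25.8% and 21.5% in siI1. Means were 12.8% ± 2.64 and 23.2% ± 2.27 (SD, n = 3 each), and the exact two-sided permutation p was 0.1, the smallest that 3 against 3 libraries can give. Protein-coding genes took 83.1% ± 2.25 and 73.4% ± 2.17 (SD, n = 3 each) of reads. RN7SL2 alone held 53.2% of the FPKM sum in siC and 63.0% in siI1 on average. RN7SL2 was at 331144, 425337 and 263872 FPKM in siC and 636556, 769585 and 605711 FPKM in siI1. With the intensity trend of the fit its log2 fold change of 1.00 ± 1.78 was not called (adjusted p 0.727), while it was without that trend (adjusted p 0.0251) and by limma voom on recovered reads (adjusted p 2.94e-06). RN7SL3 rose (log2 fold change 1.67 ± 0.42, adjusted p 0.0308), a call that did not pass without siC replicate 1 (adjusted p 0.221) or any 1 siI1 library (adjusted p 0.150 to 0.188). The copies are near-identical, so how reads were split between them is uncertain. RN7SL1, RN7SK, RMRP and RPPH1 were listed at 0 in all 6 libraries.

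**Figure D4:**
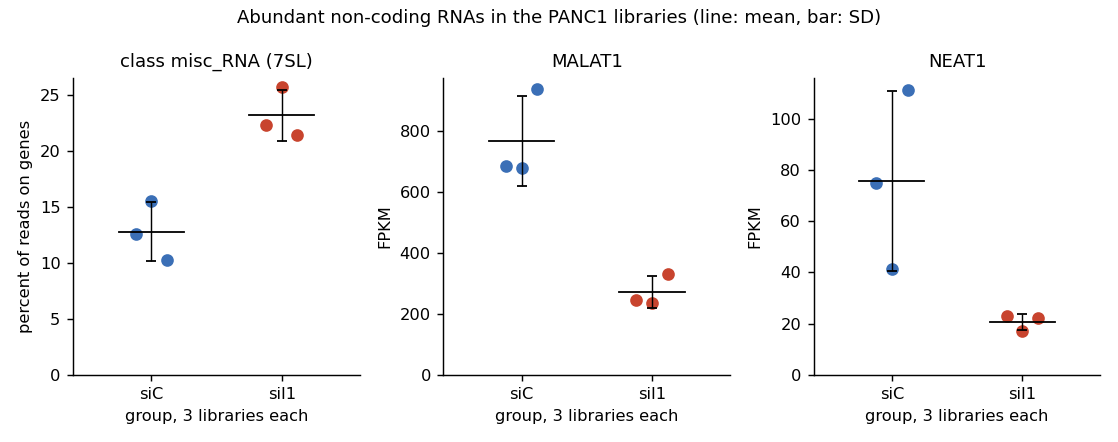
Percent of gene-assigned reads on the class misc_RNA, which is mostly 7SL RNA, and levels of MALAT1 and NEAT1 in FPKM, in the 3 siC (blue) and 3 siI1 (red) PANC1 libraries; lines are means and bars SD. The misc_RNA share was 10.2% to 15.5% in siC and 21.5% to 25.8% in siI1, and MALAT1 and NEAT1 were lower in each siI1 library.

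Of 611 lincRNAs tested, 19 fell (3.11%) and 55 rose (9%). The falls by rule, besides MALAT1 and NEAT1, were AC005899.7 (1.18, 2.40 and 2.43 against 0, 0.283 and 0 FPKM), AC091057.3 (2.46, 1.28 and 2.76 against 0.200, 0.227 and 0.645 FPKM) and AC145207.5 (5.75, 6.83 and 6.84 against 1.31, 2.36 and 2.82 FPKM). The rises were AC093323.3 (4.28, 5.57 and 3.10 against 15.9, 14.97 and 14.6 FPKM; log2 fold change 1.73 ± 0.18, adjusted p 0.00213), AC011445.2 (log2 fold change 1.64 ± 0.29, adjusted p 0.0104), AC008736.1 (log2 fold change 1.45 ± 0.27, adjusted p 0.0122), AL161937.1 (log2 fold change 2.01 ± 0.46, adjusted p 0.0233) and LINC02454 (log2 fold change 1.68 ± 0.38, adjusted p 0.0228). LINC02454 and AL161937.1 had siC means of 0.229 and 0.365 FPKM and passed the filter of 0.5 FPKM through siI1 alone, and AC005899.7 and AC091057.3, with siI1 means of 0.0943 and 0.357 FPKM, through siC alone. AL161937.1 and AC005899.7 had libraries without a read, so that their fitted values depend on the pseudocount. Several of these calls did not pass without some library, namely AC091057.3 (siC replicate 1 or 3, adjusted p 0.0613 and 0.0535), AC008736.1 (siI1 replicate 1, 0.0516), LINC02454 (siC replicate 1 or 2 or siI1 replicate 2, 0.0568 to 0.0769) and AL161937.1 (siC replicate 2 or 3 or siI1 replicate 1 or 2, 0.0526 to 0.0831). Without siC replicate 1 the counts were 9 lower and 25 higher; without siC replicate 3 they were 12 and 31, and 30 or 31 were higher without any 1 siI1 library.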

How the data were processed

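FPKM values were deposited by the authors as a table of 58174 genes per library. Per the labels and the methods, reads were trimmed with cutadapt (1.14), aligned to hg38 with HISAT2 (2.1.0) and SAMtools (1.5), counted with featureCounts (1.5.3) on Ensembl genes and scaled by TMM in edgeR (3.30.3). The deposited unit, FPKM on TMM-scaled library sizes, was worked out from the values: multiplied by gene length, 100% of them came out as whole reads (tolerance 0.01 reads). Totals of 6532175 to 8472851 reads limit the precision of low genes. Groups follow the labels, which name 3 biological replicates each. No column of another series was present.

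log2(FPKM + 0.5) was fitted with limma (3.58.1, R 4.3.3; empirical Bayes with intensity trend) for genes whose mean reached 0.5 FPKM, Benjamini-Hochberg adjusting across them at a threshold of 0.05. The study's count test was not run because the tables hold FPKM; limma voom on the recovered reads was an alternative. The difference is the PANC1 effect minus the mean effect in A549, ES2 and MV3, from 1 limma fit of 24 libraries over genes with at least 0.5 FPKM in each line. The scripts were tested on simulated data. Values quoted without an adjusted p beside a verb of change passed the threshold.

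Named genes were the IGF2BP family, the 12 lowest and 12 highest called protein-coding genes (mean of at least 2 FPKM, no overlap), 5 lincRNAs each way (at least 1 FPKM), 10 differences each way, up to 4 called members per list and role-defining members. A few list members count in the totals but are not reported here by name. Members and lists were chosen with earlier results of these data known. Coordinates come from GENCODE 44 on hg38, promoter windows from RefSeq. Alternatives changed the pseudocount, filter, trend, scaling, length trend (chosen after seeing the data), replicate block, test and libraries.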

Additional observations from a re-analysis of the deposited data

Results flagged for a closer look

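For 36 genes the effect in PANC1 differed from the mean effect in A549, ES2 and MV3 by the test of the difference (limma, adjusted p under 0.05). They were counted among genes named by family, by size of change or difference, or as abundant non-coding RNAs. Genes named only as list members, such as ASPM and CDK6, were left out of this count. All values are log2 fold change in PANC1 minus that mean, and cell line and harvest time cannot be told apart in them. The targeted gene IGF2BP1 had a difference of -0.37 and its paralogue IGF2BP3 one of -0.22. Among the largest falls it was -0.55 for NEMP1, -0.38 for SLC39A14, -0.86 for C5orf15 and -0.79 for PHACTR2. Among the largest rises it was 1.28 for MORN2, 0.81 for HMGCS1, 1.11 for FAM222A, 1.35 for TRIB1, 1.23 for BORCS6 and 0.81 for DPCD.

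The long non-coding RNAs gave -1.74 for NEAT1, -1.75 for AC091057.3, -1.70 for MALAT1, -0.78 for AC145207.5 and 1.15 for AC008736.1. The AC091057.3 value had an SE of 0.64 (adjusted p 0.0450) and rested on 1 to 17 reads per PANC1 library. The 7SL genes gave 0.94 for RN7SL2 and 1.26 for RN7SL3. These large differences in abundant RNA stand beside the same-sum shift of -0.64 in the median of all PANC1 genes.

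Of the genes named for a low difference, the values were -1.61 for COL5A2, -1.50 for ABCC3, -1.32 for LOXL2, -1.32 for PLOD2, -1.28 for CD109, -1.28 for TFPI, -1.21 for S100A2, -1.18 for OGFRL1, -1.16 for HIP1 and -1.16 for CACNG8. Of those named for a high difference they were 1.51 for CTGF, 1.32 for TMEM158, 1.25 for CXCL1, 1.24 for ERRFI1, 1.24 for SERTAD1, 1.22 for SNPH and 1.19 for JUND. The 17 genes of this paragraph and TRIB1, MORN2 and BORCS6 were picked for the size of the difference itself, so their sizes are a description.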

How the results depend on the processing

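Scaling mattered most. With libraries rescaled to the same FPKM sum, 7611 protein-coding genes were lower and 38 higher, 129 lincRNAs lower and 12 higher, and 8218 differences lower and 34 higher, the construction moving the median of all genes by -0.64 and that of protein-coding genes by -0.70; IGF2BP2 turned to -0.51, its difference to -0.64 and ERRFI1 to -0.19. With the same protein-coding sum 2973 differences were lower and 1086 higher, and the IGF2BP2 difference was -0.033; the cause was not tested. With a minimum change of 1 (log2) the counts were 101 and 82 protein-coding genes and 9 and 20 lincRNAs, and voom gave 34 lower lincRNAs. Leaving out a library gave 1083 to 1678 lower and 842 to 1585 higher protein-coding genes, 9 to 25 lower and 25 to 46 higher lincRNAs, differences of 1557 to 2006 lower and 1397 to 1936 higher, and -1.85 to -1.82 for IGF2BP1. Replicate numbers did not pair the libraries (correlations of same-numbered deviations -0.0184, 0.0711 and 0.0051, and replicates 1 and 3 correlated better with another number). With the replicate block 1412 protein-coding genes were lower and 1134 higher, respiratory chain members higher numbered 15, and IGF2BP2, PLOD2, CTGF and the IGF2BP3 difference did not pass. Of 55 genes followed one by one under each alternative, the fold changes of IGF2BP2 and ERRFI1 changed sign, as did the IGF2BP2 difference among the 23 differences followed. List members were not followed this way except under the same-sum rescaling, which put 1208 of 1510 higher protein-coding genes below 0. At these depths small changes of genes near 0.5 FPKM were not detectable.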

Other observations

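Small regulatory families were split in PANC1. Of 13 microRNA machinery genes 3 fell and 1 rose, AGO1 (-0.48), AGO2 (-0.44) and the nuclear nuclease DROSHA (-0.22) against the DICER partner TARBP2 (0.62), and 7 of 13 differences were the more negative (background 20.2%). Of 15 m6A genes 3 fell and 2 rose (0 or 1 lower and 1 higher without any library but siC replicate 2), among them the methyltransferase METTL3 (-0.42) and the demethylase ALKBH5 (0.41). Of 22 tested SRF and actin genes 6 fell and 4 rose, SRF itself at -0.68, the filamin FLNA at -0.63 and the transgelin relative TAGLN2 at 0.85; 9 of 21 differences were the more positive, and 15 members fell in A549 (background 11.4%). NRF2 targets had 4 higher (2 without siC replicate 1 or any siI1 library) and 2 lower of 19, with NQO1 at 0.47 and TXNRD1 at -0.38, and 10 of 18 differences were the more positive, while 15 members fell in MV3 (background 26.8%). ATF4 genes of amino acid supply had 4 higher (0 to 2 without any library but siC replicate 2) and 2 lower (0 or 1 without siC replicate 1 or 2 or siI1 replicate 1 or 2) of 13, with asparagine synthetase ASNS at 0.54, and 7 of 13 differences were the more positive. BCL2 proteins gave 3 higher (1 without siC replicate 1 or any siI1 library) and 2 lower (0 or 1 without any library) of 13, with the death promoter BAD at 0.65 and the guardian BCL2L1 at -0.32. Matrix proteases and inhibitors had 3 each way of 12 (1 lower without siC replicate 1, 1 higher without siC replicate 1 or 3 or siI1 replicate 2), with MMP14 at -0.78 and TIMP2 at 0.61. Counts for these lists rest on few members. Whether their shares differ from the backgrounds of 17.3% lower and 13.6% higher was not tested.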
